A study of Mus musculus with 12 samples.

Results

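Glutathione S-transferases were followed through the retinas of C57BL/6J mice, Cast/EiJ mice and their hybrids. The 10 genes Gstm1, Gstm2, Gstm5, Gstm6, Gsta4, Gstp1, Gstt1, Gstt3, Gsto1 and Gstk1 were taken by gene symbol from the 37991 genes of the deposited tables, and each symbol matched 1 row. C57BL/6J is the standard laboratory strain, and Cast/EiJ is a wild-derived inbred strain. The 4 groups had 3 libraries each. They were the pure strains, F0 C57BL/6J and F0 Cast/EiJ, and the reciprocal hybrids, named F1 B6xCast where the father was C57BL/6J and the mother Cast/EiJ, and F1 CastxB6 where the father was Cast/EiJ and the mother C57BL/6J. All mice were untreated males aged 8 weeks, and each library was a pool of 6 to 8 retinas, so the values are for whole retina.

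Glutathione S-transferases join the thiol of glutathione to electrophilic compounds, which makes them less reactive and easier to export. The retina is rich in polyunsaturated lipid and uses much oxygen, and products of lipid peroxidation such as 4-hydroxynonenal are among the substrates of these enzymes. The cytosolic enzymes fall into classes by sequence (mu, alpha, pi, theta, omega and others), and the kappa class sits in mitochondria and peroxisomes. Genes of 1 class are often neighbours that arose by duplication, and their transcripts can be so alike that a short read matches several of them.

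That likeness bears on every value below, so the stretches that separate the members or fail to do so are shown first. Each stretch is coding sequence of the C57BL/6J reference (build NCBI37) as long as 1 read of a pair, written on the strand of the gene. Capitals mark bases that differ from the first sequence of the set. The mu class genes lie on chromosome 3, and the stretch from coding exon 7 was at chr3:107817681-107817781 in Gstm1, at chr3:107786864-107786964 in Gstm2, at chr3:107701084-107701184 in Gstm5, at chr3:107743921-107744021 in Gstm6 and at chr3:107731798-107731898 in their neighbour Gstm7. Gstm5 is on the plus strand and the others are on the minus strand.
Gstm1: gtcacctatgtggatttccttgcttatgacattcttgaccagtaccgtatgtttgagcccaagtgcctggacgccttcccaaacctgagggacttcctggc
Gstm2: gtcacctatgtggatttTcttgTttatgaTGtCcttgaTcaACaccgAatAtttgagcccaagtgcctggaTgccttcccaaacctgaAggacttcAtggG
Gstm5: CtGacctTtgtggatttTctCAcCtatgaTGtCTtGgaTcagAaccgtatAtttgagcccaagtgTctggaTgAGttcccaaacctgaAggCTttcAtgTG
Gstm6: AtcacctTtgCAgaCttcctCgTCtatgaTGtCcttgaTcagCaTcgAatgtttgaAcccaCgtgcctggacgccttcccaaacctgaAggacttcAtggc
Gstm7: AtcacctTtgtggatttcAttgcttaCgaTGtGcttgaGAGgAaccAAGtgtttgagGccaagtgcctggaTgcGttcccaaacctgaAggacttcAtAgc
The stretch of Gstm2 differed from that of Gstm1 at 14 bases, that of Gstm5 at 25, that of Gstm6 at 19 and that of Gstm7 at 20.

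In the pi class much of the transcript does not separate the genes. Gstp1 and its neighbour Gstp2 are on the minus strand of chromosome 19. Their coding exon 7 stretches, at chr19:4035561-4035661 and chr19:4040439-4040539, were identical.
Gstp1: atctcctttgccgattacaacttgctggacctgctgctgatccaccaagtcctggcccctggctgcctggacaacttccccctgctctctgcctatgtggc
Gstp2: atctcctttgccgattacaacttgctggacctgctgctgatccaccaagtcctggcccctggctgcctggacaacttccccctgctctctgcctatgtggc
The coding exon in which they differed most was exon 5, at chr19:4036691-4036791 in Gstp1 and chr19:4040985-4041085 in Gstp2, with 6 differences.
Gstp1: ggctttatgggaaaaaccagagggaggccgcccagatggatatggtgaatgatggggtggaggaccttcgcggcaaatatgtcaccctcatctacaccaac
Gstp2: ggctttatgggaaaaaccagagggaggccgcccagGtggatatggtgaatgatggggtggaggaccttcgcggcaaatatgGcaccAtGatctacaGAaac
A read inside the first stretch cannot tell the 2 genes apart, and a read inside the second can.

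In the theta class the neighbours Gstt1 and Gstt3, both on the minus strand of chromosome 10, were well separated. Their coding exon 4 stretches were at chr10:75249616-75249716 and chr10:75238692-75238792, and they differed at 21 bases.
Gstt1: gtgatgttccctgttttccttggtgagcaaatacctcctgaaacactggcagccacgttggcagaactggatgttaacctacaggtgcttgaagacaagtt
Gstt3: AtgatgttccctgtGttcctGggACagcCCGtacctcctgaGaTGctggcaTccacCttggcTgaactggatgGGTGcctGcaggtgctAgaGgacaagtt

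For the transcript of each gene with the longest complete coding sequence, all stretches of read length were searched in the annotated protein-coding transcripts. Non-coding transcripts were not searched. Of the stretches of Gstp1, 57.92% were found without a mismatch in another gene, and that gene was Gstp2. The coding sequences of Gstp1 and Gstp2 were 98.1% identical. For Gstt3 the share was 23.88%, held by Gm20441, a gene model that overlaps Gstt3 on the same strand. It was 2.32% for Gstm6 and 1.51% for Gstm1, in both cases with Gstm3, and 0.0% for the other 6 members. The genes themselves lie at chr3:107815173-107820891 (Gstm1), chr3:107784620-107789371 (Gstm2), chr3:107698739-107701604 (Gstm5), chr3:107741765-107746667 (Gstm6), chr9:78039773-78057155 (Gsta4), chr19:4035411-4037921 (Gstp1), chr10:75246558-75261329 (Gstt1), chr10:75236860-75244159 (Gstt3), chr19:47929460-47939280 (Gsto1) and chr6:42195934-42200440 (Gstk1). Gstm6 overlaps Gstm3 and Gm12494 on the same strand, Gstm5 overlaps 4933431E20Rik on the opposite strand, and Gsto1 overlaps Wdr96 on the opposite strand. The library protocol does not mark strand, so reads of overlapping genes on opposite strands cannot be told apart where their exons meet.

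The tables give each gene a count equivalent, which is a normalized estimate of its fragments that divides shared reads among genes and alleles, and unique hits, which are read pairs that match 1 gene only and, in the hybrids, 1 allele only. Unique hits per library ran from 8158534 to 12363291, with a group median of 10994604 in the C57BL/6J parents and 8234902 in the Cast/EiJ parents. Replicate 1 of F0 C57BL/6J, of F0 Cast/EiJ and of F1 B6xCast stood further from its group than the other replicates did, and results that change without such a library are named below. The rod markers Gnat1, Pde6b, Sag, Nrl and Nr2e3 were high in all libraries, with summed count equivalents of 312000 to 321000 in F0 C57BL/6J, 346000 to 381000 in F0 Cast/EiJ and 321000 to 368000 in the hybrids. Of the marker genes that could be tested between the F0 strains, 2 of 5 for rods were called higher in Cast/EiJ, and 3 of 4 for retinal pigment epithelium, 2 of 3 for microglia, 2 of 3 for blood and 1 of 3 for cones were called lower. Of the 5 for Mueller glia 1 was higher and 2 were lower, and of the 3 for lens and the 2 for ciliary body and iris none was called. The 6 markers of retinal pigment epithelium summed to 273 to 322 in F0 C57BL/6J and to 91.0 to 119 in F0 Cast/EiJ, the 4 of microglia to 233 to 251 and 111 to 197, the 4 of blood to 658 to 999 and 373 to 634, the 5 of cones to 11600 to 13300 and 8370 to 9370, and the 5 of Mueller glia to 43400 to 52600 and 39200 to 45400, the last pair of ranges overlapping. The lens list ran from 7.71 to 181 in F0 C57BL/6J and 68.0 to 220 in F0 Cast/EiJ, with Lim2 under 3 throughout, and the list for ciliary body and iris from 31.5 to 47.4 and 27.0 to 41.6. Their part in the differences below was not tested, and in whole retina fewer cells of a type and less RNA per cell cannot be told apart.

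Gstp1 was the most abundant member in each of the 4 groups. Per transcript length, as fragments scaled to transcript length and mapped read pairs (FPKM), it stood at 99.1 ± 1.71 (SD, n = 3) in F0 C57BL/6J and 67.4 ± 1.79 in F0 Cast/EiJ, and Gstm5 came next in every group, at 31.0 ± 6.68 and 20.3 ± 3.23 FPKM. Gstt1, Gsta4 and Gstm1 followed in F0 C57BL/6J at 11.6 ± 2.14, 11.5 ± 1.75 and 10.6 ± 0.959 FPKM, and neighbours in this trio overlapped between libraries. In F0 Cast/EiJ the next places were held by Gstm1 at 12.6 ± 2.32, Gsto1 at 6.63 ± 1.08, Gstt1 at 5.91 ± 0.665 and Gsta4 at 5.31 ± 0.462 FPKM. There the range of Gstm1 lay above the other ranges, Gsto1 overlapped Gstt1, and Gstt1 overlapped Gsta4. The low end held Gstk1, Gstt3, Gstm6 and Gstm2 in F0 C57BL/6J, from 2.26 ± 0.175 down to 0.439 ± 0.0572 FPKM. Gstm2 was lowest in all 4 groups. The order in both hybrids was Gstp1, Gstm5, Gstm1, Gsta4, Gstt1, Gsto1, Gstk1, Gstt3, Gstm6, Gstm2, with Gstm1, Gsta4 and Gstt1 overlapping from each to the next, as did Gstt3 and Gstm6 and, in F1 CastxB6, Gstm6 and Gstm2.

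**Figure D1:**
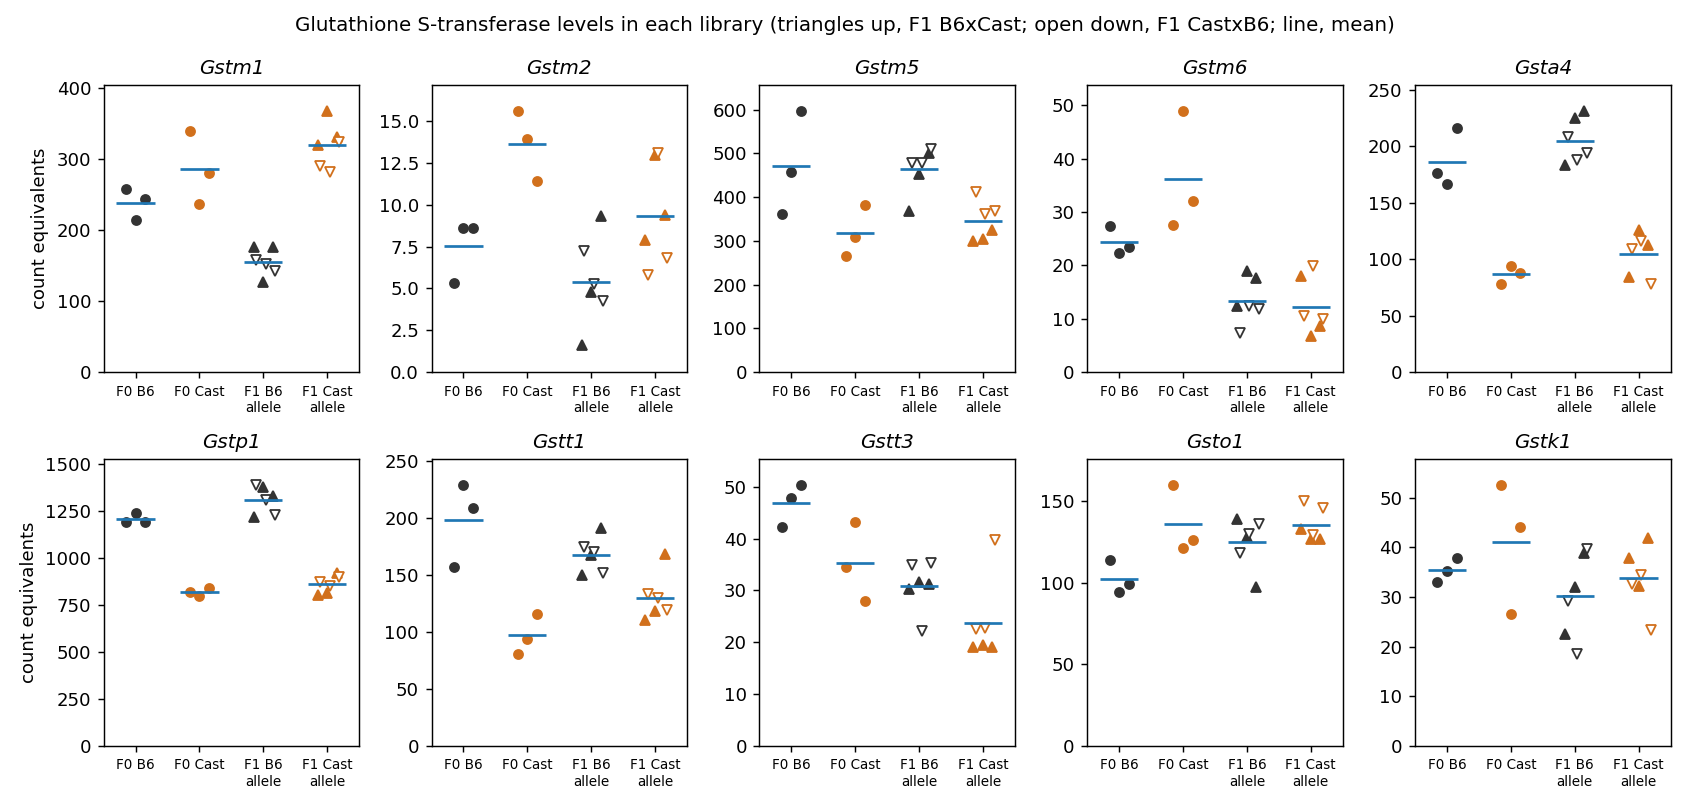
Count equivalents (vertical axes, linear, from 0) of the 10 genes in the 3 libraries of each F0 strain and for each allele in the 6 F1 libraries, with points for libraries and a line at the mean. The Gsta4 and Gstp1 values of C57BL/6J origin sit above those of Cast/EiJ origin in parents and hybrids, and the Gstm1 alleles part only in the hybrids, where the C57BL/6J allele lies between 127 and 176 and the Cast/EiJ allele between 282 and 368.

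The F0 strains were compared first, to ask which members differ between the pure strains. Gsta4, Gstp1 and Gstt1 were lower in Cast/EiJ than in C57BL/6J, and no member passed the test in the other direction. That is 3 of 10 members, beside 33.8% of the 14452 genes tested, of which 17.2% were higher and 16.6% lower in Cast/EiJ, so the members were called about as often as other genes. Their median absolute log2 difference was 0.54, against 0.26 over all genes tested. The test was limma on log2(count equivalents + 1), adjusted by the Benjamini-Hochberg method over all genes tested, with a call at an adjusted p under 0.05, and the log2 differences here are Cast/EiJ minus C57BL/6J on that scale.

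Gsta4 encodes the alpha class enzyme with a preference for 4-hydroxynonenal. Its count equivalents were 176, 166 and 216 in the F0 C57BL/6J libraries and 78.0, 93.5 and 87.9 in the F0 Cast/EiJ libraries. The ranges lay apart, with each Cast/EiJ library below each C57BL/6J library. The difference was 2.13-fold (log2 difference -1.09, SE 0.15, adjusted p = 0.00065 in limma).

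Gstp1 encodes the pi class enzyme, which also binds and restrains the kinase JNK. It had 1190, 1240 and 1190 count equivalents in F0 C57BL/6J and 820, 796 and 838 in F0 Cast/EiJ. The libraries of each strain lay close together and far from those of the other strain. Gstp1 was 1.47-fold lower in Cast/EiJ (log2 difference -0.56, SE 0.07, adjusted p = 0.00028 in limma).

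Gstt1 encodes a theta class enzyme that acts on small halogenated compounds. Its values were 157, 229 and 209 in F0 C57BL/6J and 80.5, 94.0 and 116 in F0 Cast/EiJ, again without overlap. The difference was 2.03-fold (log2 difference -1.02, SE 0.19, adjusted p = 0.0033 in limma), and it missed the threshold when no filter on low values was applied (adjusted p = 0.055 in limma).

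Of the mu class members, which act on many aromatic electrophiles, none passed the test between the F0 strains. Gstm5 had 362, 458 and 597 count equivalents in F0 C57BL/6J and 265, 308 and 381 in F0 Cast/EiJ. The lowest C57BL/6J library lay within the Cast/EiJ range. The log2 difference was -0.56 (SE 0.19, adjusted p = 0.051 in limma), and 8 of 15 alternatives called it, with adjusted p-values over all of them from 0.00096 to 0.30. The lowest came from limma with the replicate number as a block, and the numbers were not taken to pair the samples. Among the other alternatives that called it were edgeR on unique hits (adjusted p = 0.018) and limma without replicate 1 of F0 C57BL/6J (adjusted p = 0.012).

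Gstm1 had 258, 215 and 244 count equivalents in F0 C57BL/6J and 340, 237 and 281 in F0 Cast/EiJ. The ranges overlapped, and the log2 difference was 0.25 with a 95% interval from -0.08 to 0.57 (adjusted p = 0.221 in limma). Gstm2 was at 5.33, 8.63 and 8.63 in F0 C57BL/6J and 15.6, 13.9 and 11.4 in F0 Cast/EiJ. These ranges lay apart, but they rest on 5 to 10 unique hits a library, and the log2 difference of 0.80 did not pass (95% interval 0.02 to 1.57, adjusted p = 0.104 in limma). Gstm6 was at 27.3, 22.3 and 23.5 against 27.5, 48.9 and 32.1. Each of its Cast/EiJ values was above the C57BL/6J values by a narrow margin in 1 library, and the log2 difference was 0.51 (95% interval -0.09 to 1.12, adjusted p = 0.168 in limma).

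The other 3 members also did not pass. Gsto1, an omega class enzyme with thiol transferase and dehydroascorbate reductase activity, had 114, 94.4 and 99.0 count equivalents in F0 C57BL/6J and 160, 121 and 126 in F0 Cast/EiJ. The ranges lay apart, and the log2 difference was 0.40 (95% interval 0.04 to 0.75, adjusted p = 0.0818 in limma). Gstt3, the second theta class member, was at 42.2, 47.9 and 50.4 against 34.6, 43.2 and 28.0, which overlapped (log2 difference -0.42, 95% interval -0.92 to 0.08). Gstk1, the kappa class enzyme, was at 33.0, 35.2 and 37.8 against 52.6, 26.6 and 44.0, so the Cast/EiJ libraries lay on both sides of the C57BL/6J range (log2 difference 0.16, 95% interval -0.45 to 0.77).

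The alleles of the F1 hybrids were compared next. Both alleles of a hybrid share 1 set of cells, so this comparison asks whether a difference stays with the allele. Gstm2, Gstm6 and Gstt3 had under 10 allele-specific unique hits in the mean F1 library and were not tested. Of the 7 members tested, Gstm1 had the higher level from the Cast/EiJ allele, and Gstm5, Gsta4, Gstp1 and Gstt1 had the higher level from the C57BL/6J allele. That is 5 of 7, beside 47.0% of 13414 genes tested, with 23.5% in each direction, and the 3 members left out had fewer allele-specific reads.

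The Gstm1 alleles differed 2.06-fold. The C57BL/6J allele had 176, 127 and 176 count equivalents in F1 B6xCast and 158, 152 and 142 in F1 CastxB6. The Cast/EiJ allele had 320, 368 and 332, and 290, 282 and 325. The ranges of the alleles lay far apart in both crosses (log2 difference Cast/EiJ minus C57BL/6J 1.04, SE 0.09, adjusted p = 9.7e-08 in limma). The unique hits gave the same direction in 6 of 6 F1 libraries, with 153 on the C57BL/6J allele and 317 on the Cast/EiJ allele in all, a Cast/EiJ share of 67.4% (exact 95% interval 63.0% to 71.7%, counting error only). The hits came to 78.3 a library, and only 0.16 allele-specific hits per count equivalent were available, where the median gene had 0.461.

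Gsta4 kept the direction seen between the F0 strains. Its C57BL/6J allele had from 183 to 231 count equivalents with a median of 201 over the 6 F1 libraries, and its Cast/EiJ allele from 77.6 to 126 with a median of 110. The alleles did not overlap, and they differed 1.98-fold (log2 difference -0.99, SE 0.11, adjusted p = 1.3e-06 in limma). Of 1545 allele-specific unique hits, 33.5% were on the Cast/EiJ allele (exact 95% interval 31.2% to 35.9%).

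The Gstp1 alleles were apart as well, at 1220 to 1390 with a median of 1320 for C57BL/6J and 803 to 919 with a median of 862 for Cast/EiJ. They differed 1.52-fold (log2 difference -0.61, SE 0.04, adjusted p = 5.5e-09 in limma). In the unique hits the difference was larger, at -0.83 on the log2 scale in edgeR, with 35.5% of hits on the Cast/EiJ allele against 39.6% of count equivalents. Replicate 1 of F1 B6xCast had 298 allele-specific hits of Gstp1 and the other 5 F1 libraries 546 to 687, while its Cast/EiJ share of 33.9% lay within the range of the others, 33.2% to 37.8%.

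Gstm5 and Gstt1 had smaller allelic differences. Gstm5 ran from 368 to 510 with a median of 478 for the C57BL/6J allele and from 300 to 412 with a median of 344 for the Cast/EiJ allele. Its ranges overlapped across libraries, but the Cast/EiJ allele was lower within 6 of 6 libraries (log2 difference -0.43, SE 0.10, adjusted p = 0.0025 in limma). Gstt1 ran from 150 to 191 with a median of 168, and from 110 to 168 with a median of 124, and was likewise lower from the Cast/EiJ allele within 6 of 6 libraries. Its log2 difference was -0.37 (SE 0.11, adjusted p = 0.0117 in limma), which missed the threshold without replicate 1 of F1 B6xCast (adjusted p = 0.052 in limma). Of 1599 allele-specific hits of Gstt1, 43.2% were on the Cast/EiJ allele (exact 95% interval 40.8% to 45.7%).

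Gsto1 and Gstk1 did not pass. The Gsto1 alleles had medians of 129 (97.2 to 139) and 131 (127 to 150), and their log2 difference was 0.12 with a 95% interval from -0.07 to 0.32. The Gstk1 alleles had medians of 30.5 (18.5 to 39.7) and 33.5 (23.3 to 41.9), with a log2 difference of 0.19 and an interval from -0.23 to 0.60. For both genes each allele was found above the other in some of the libraries.

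**Figure D2:**
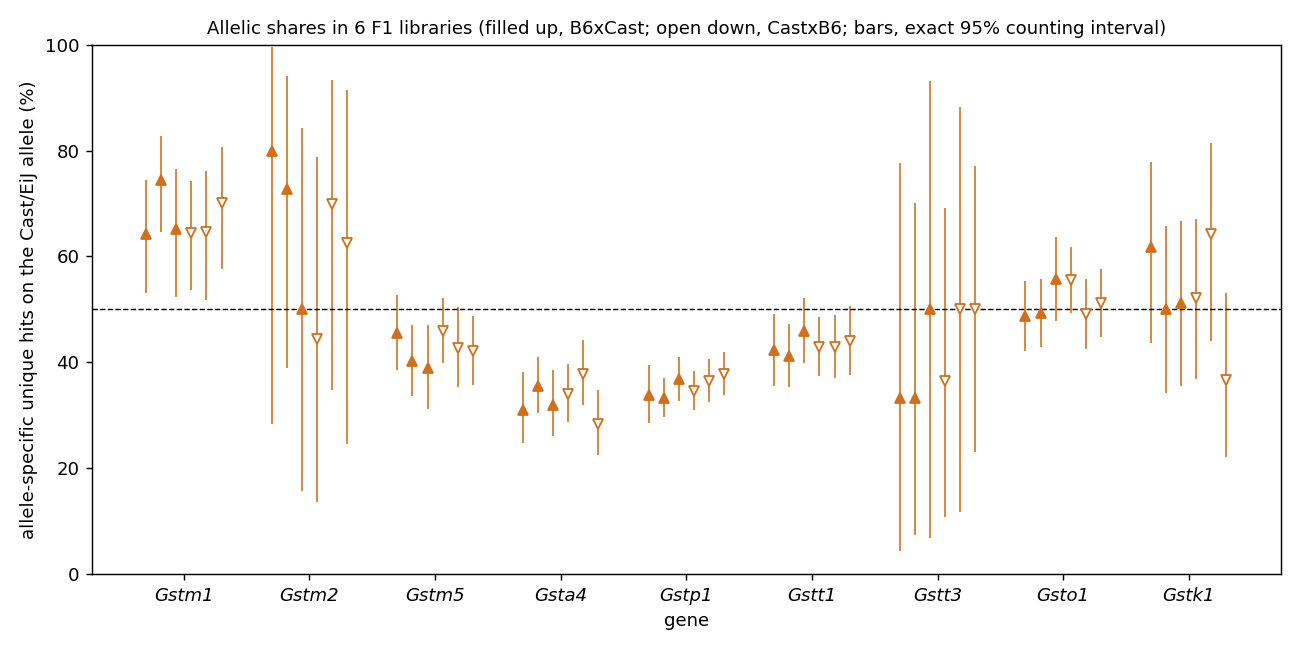
Share of allele-specific unique hits on the Cast/EiJ allele (vertical axis, %) for 9 genes in each of the 6 F1 libraries, with exact 95% counting intervals and a dashed line at equality. All 6 points are above the line for Gstm1 and below it for Gstm5, Gsta4, Gstp1 and Gstt1, and the intervals of Gstm2 and Gstt3 are wide because each library had few such hits.

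The members left out of the allelic test had few or no informative reads. Gstm2 had 51 allele-specific hits in the 6 libraries together, 62.7% on the Cast/EiJ allele (exact 95% interval 48.1% to 75.9%), and Gstt3 had 50, with 42.0% (28.2% to 56.8%). Gstm6 had 0 allele-specific hits in each F1 library, against 17 to 30 unique hits in each F0 library. A count of 0 allows up to 3 allele-specific hits on each allele, which bounds the hits that tell the alleles apart and not the level of Gstm6. Its deposited posterior SD, the uncertainty of the natural log of expression, was 0.18 to 0.26 in the F0 libraries and 1.5 to 2.0 in the F1 allele columns.

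Whether a strain difference differed from the allelic difference was tested as 1 contrast, in which the allelic difference of the hybrids is taken from that of the parents. The remainder is called a trans difference. It was called for Gstm1 and Gstt1, 2 of 7 members, beside 14.0% of 13414 genes, 8.31% being negative like these 2. For Gstm1 the strain difference was 0.25 and the allelic difference 1.04, and the trans difference was -0.79 (SE 0.17, adjusted p = 0.0048 in limma). It passed under all 20 alternatives, with adjusted p-values between 0.002 and 0.019. The C57BL/6J allele of Gstm1 in the hybrids, at 127 to 176 count equivalents, lay below the F0 C57BL/6J libraries, at 215 to 258, whereas the Cast/EiJ allele, at 282 to 368, overlapped the F0 Cast/EiJ libraries, at 237 to 340. Each F1 allele column is on the scale of a whole F0 library.

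For Gstt1 the strain difference was the larger of the pair, and the trans difference was -0.65 (SE 0.21, adjusted p = 0.0439 in limma). This call was lost under 10 of 20 alternatives, including no filter (adjusted p = 0.10 in limma) and the removal of any of 9 libraries, with adjusted p-values from 0.017 to 0.14 over all 20. The C57BL/6J allele stood at 0.844 times its F0 mean and the Cast/EiJ allele at 1.34 times its F0 mean. The trans differences of Gstm5, Gsta4, Gstp1, Gsto1 and Gstk1 were not called. They were -0.13 (95% interval -0.52 to 0.27), -0.10 (-0.53 to 0.32), 0.05 (-0.12 to 0.22), 0.27 (-0.09 to 0.63) and -0.03 (-0.77 to 0.72).

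**Figure D3:**
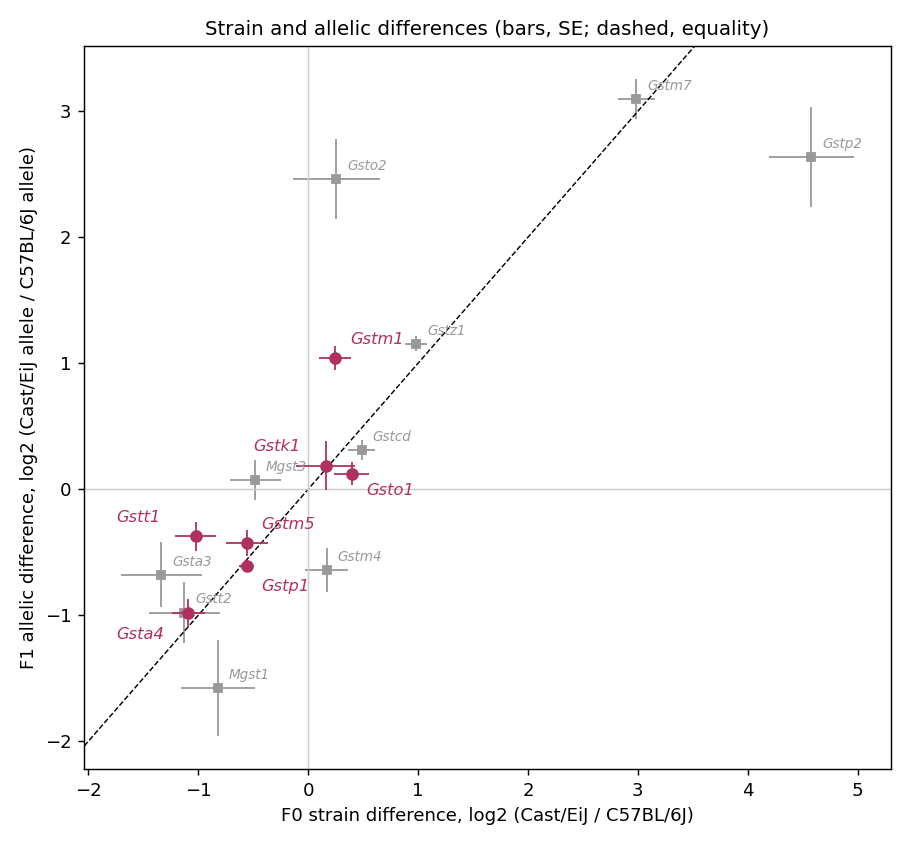
F0 strain difference (horizontal axis, log2) against F1 allelic difference (vertical axis, log2), both Cast/EiJ over C57BL/6J, for the 7 members tested (circles) and 10 other family genes (grey squares), with bars of 1 SE and a dashed line of equality. Gsta4, Gstp1, Gstm5, Gstk1 and Gsto1 are near the line, and Gstm1 and Gstt1 are above it.

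The reciprocal crosses carry the same alleles from opposite parents. The difference between the maternal and the paternal allele was called for 0 of 7 members, beside 0.492% of genes. Limma gave 0 members an unadjusted p under 0.05, edgeR on unique hits also called 0, and the log2 differences ran from -0.07 for Gstm5 (95% interval -0.29 to 0.15) to 0.10 for Gstk1 (-0.32 to 0.51). The total level, taken as the mean of the alleles, was called different between the crosses for 0 of 10 members in limma, with 0 at an unadjusted p under 0.05, beside 0.0816% of 14710 genes. Gstm5, for example, had 334, 379 and 414 count equivalents in F1 B6xCast and 444, 420 and 439 in F1 CastxB6. The crosses did not overlap, but the log2 difference of 0.22 had a 95% interval from -0.16 to 0.59.

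The total level of the hybrids, as the log2 of the mean of the alleles, was also set against the mean of the log2 values of the F0 strains. The log2 of a mean is never below the mean of the log2 values, so a gene whose alleles differ is shifted upward in this contrast. The part of this shift in the calls was not tested. A difference was called for 3 of 10 members, beside 12.2% of 14710 genes, 5.03% being lower in the hybrids. Gstm6 was lower (log2 difference -1.15, SE 0.18, adjusted p = 0.00092 in limma), Gstt3 was lower (-0.56, SE 0.15, adjusted p = 0.0243) and Gstp1 was higher (0.13, SE 0.04, adjusted p = 0.049). The Gstp1 value includes some of the upward shift. Its mean count equivalents were 1210 in F0 C57BL/6J, 818 in F0 Cast/EiJ, 1080 in F1 B6xCast and 1090 in F1 CastxB6. Gstm6 had 15.2, 12.8 and 13.1 count equivalents in F1 B6xCast and 8.88, 16.1 and 10.9 in F1 CastxB6, all below its F0 libraries. It is the member without allele-specific hits, and 812 genes tested whose median posterior SD in the F1 columns was 1 or more had a median log2 difference of -1.86 between hybrids and parents, against 0.015 for the 13347 genes under 0.5. Of these 812 genes 63.3% were called lower in the hybrids, against 1.36% of the well resolved genes, and the part of this in the Gstm6 value was not tested. Gstt3 had a median posterior SD of 0.42. The Gstt3 call was lost under 8 of 18 alternatives and the Gstp1 call under 13 of 18, most of them with a library left out, with adjusted p-values from 0.012 to 0.076 and from 0.005 to 0.13. With TMM factors on top of the deposited scaling, 80.8% of the called genes were higher in the hybrids, against 58.8% without.

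How the reads named the members was described through their share of the unique hits of all 27 family rows. The 10 members held 68.1% ± 1.44 of the family's unique hits in F0 C57BL/6J (SD, n = 3), 47.4% ± 2.75 in F0 Cast/EiJ, and between 56.0% and 61.8% in the hybrid libraries, where hits must also be allele-specific. Gstp1 held 19.3% ± 1.40 (SD, n = 3) of the hits and 35.7% ± 2.07 of the count equivalents in F0 C57BL/6J, and 11.8% ± 1.12 and 23.5% ± 0.742 in F0 Cast/EiJ. Its share of the estimate was above its share of the reads that name it alone. Gstp1 reached 36.7% to 46.0% of the unique hits per count equivalent of the median gene, and Gstt3 65.8% to 75.8%, while the other 8 members reached 95.2% to 109%. These are the members with the largest shares of stretches found in another gene. Gstp1 was lower in F0 Cast/EiJ on the unique hits as well, with 375, 533 and 446 in F0 C57BL/6J and 237, 220 and 260 in F0 Cast/EiJ, libraries that differ in depth.

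**Figure D4:**
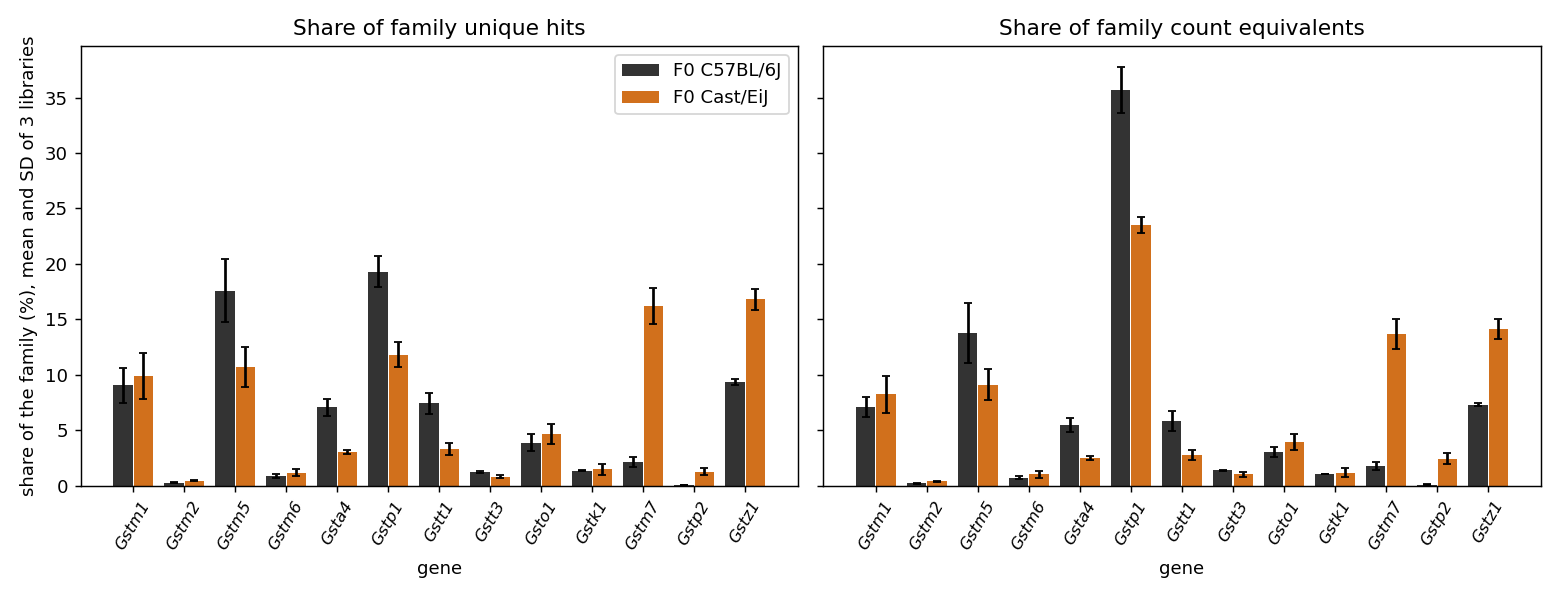
Share of the family (vertical axes, %, mean and SD of 3 libraries, bars from 0) held by the 10 members and by Gstm7, Gstp2 and Gstz1 in F0 C57BL/6J (black) and F0 Cast/EiJ (orange), for unique hits on the left and count equivalents on the right. Gstp1 takes 19.3% of the hits and 35.7% of the count equivalents in F0 C57BL/6J, and Gstm7 rises from 2.15% to 16.2% of the hits in F0 Cast/EiJ.

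The other family rows held the remaining hits. Among them Gstz1 held 16.8% and Gstm7 16.2% of the family's unique hits on average in F0 Cast/EiJ, against 9.34% and 2.15% in F0 C57BL/6J. Gstm7, a mu class gene between Gstm6 and Gstm5 on chromosome 3, had 54.6, 73.7 and 51.2 count equivalents in F0 C57BL/6J and 429, 459 and 545 in F0 Cast/EiJ. It was 7.93-fold higher in Cast/EiJ (adjusted p = 2.1e-06 in limma), and its Cast/EiJ allele was 8.57-fold higher in the hybrids (adjusted p = 6.8e-11). Gstp2 had 5.19, 1.55 and 1.81 in F0 C57BL/6J and 87.5, 98.9 and 67.4 in F0 Cast/EiJ, and because of its likeness to Gstp1 its level is uncertain. Gstp1 and Gstp2 together summed to 1195, 1242 and 1192 in F0 C57BL/6J and to 907.5, 894.9 and 905.4 in F0 Cast/EiJ, so the pi class as a whole was also lower in Cast/EiJ. The 8 rows with a mu class symbol summed to 836.5 ± 110 and 1169 ± 106 (SD, n = 3), and all 27 family rows to 3388 ± 191 and 3482 ± 104, the last ranges overlapping.

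Of the 17 other family rows, 10 were tested between the F0 strains, and 4 rose and 2 fell in Cast/EiJ, 6 of 10 beside 33.8% of all genes tested. The count of 6 includes Gstp2 and Gsta3, which passed the filter on low values only through the strain where they were higher. In the other strain Gstp2 had 1.55 to 5.19 count equivalents (F0 C57BL/6J) and Gsta3 had 3.76 to 6.24 (F0 Cast/EiJ). Beside Gstm7 and Gstp2, Gstz1, a zeta class enzyme of tyrosine breakdown, was 1.98-fold higher and Gstcd 1.40-fold higher, and Gstt2 was 2.19-fold and Gsta3 2.52-fold lower (adjusted p from 2.1e-06 to 0.0257 in limma). Of the 10 tested between the alleles, 9 were called, beside 47.0% of all genes tested. Gstm7, Gstp2, Gsto2, Gstz1 and Gstcd were higher and Gstm4, Gstt2, Gsta3 and Mgst1 lower from the Cast/EiJ allele, with log2 differences between -1.58 for Mgst1 and 3.10 for Gstm7. Gsto2 was the only one of them with a called trans difference (-2.21, SE 0.58, adjusted p = 0.0171 in limma). Mgst3, a microsomal member with over 1% of the family's hits, had log2 differences of -0.48 between the strains and 0.07 between the alleles, neither called. In the hybrids the total of Gstm7 was higher (0.61, adjusted p = 0.0011 in limma) and that of Gstp2 lower (-1.05, adjusted p = 0.0404) than the mean of the parents' log2 values. For Gstm7 this does not hold on the count scale. Its mean was 59.8 in F0 C57BL/6J and 478 in F0 Cast/EiJ. The hybrid means of 249 and 265 were not above the plain mean of those parents.

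The wider glutathione pathway was read through a list of 33 genes for the synthesis, transport, reduction and breakdown of glutathione and its regulators. Between the F0 strains 32 were tested, and 5 were higher and 5 lower in Cast/EiJ, 10 of 32 beside 33.8% of all genes tested (17.2% higher and 16.6% lower), with a median log2 difference of 0.04 against 0.03 over all genes tested. Slc7a11, the cystine transporter that supplies the limiting amino acid of glutathione, had 61.4 ± 0.361 (SD, n = 3) count equivalents in F0 C57BL/6J and 126 ± 24.8 in F0 Cast/EiJ, and was 2.01-fold higher (adjusted p = 0.0022 in limma). Glo1, which detoxifies methylglyoxal with glutathione, was 1.52-fold higher and the exporter gene Abcc5 1.41-fold higher. The largest falls were those of Chac1 (3.42-fold) and Ggct (1.59-fold), whose enzymes break down glutathione and its gamma-glutamyl products, and of the glutaredoxin gene Glrx2 (1.40-fold).

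Between the alleles 28 of the 33 were tested, and 9 were higher and 5 lower from the Cast/EiJ allele, 14 of 28 beside 47.0% of all genes tested (23.5% in each direction). Slc7a11 had 26.9 ± 6.16 (SD, n = 6) and 121 ± 10.6 count equivalents from the C57BL/6J and the Cast/EiJ allele, a 4.45-fold difference (adjusted p = 2.3e-10 in limma). The other named rises were Gpx4, the lipid peroxide reductase, with 1620 ± 2510 and 6550 ± 3470, a spread between libraries of the order of the means, and Gpx7, with 9.61 ± 6.36 and 17.0 ± 6.36. The falls were Ggct (1.57-fold), the thioredoxin reductase gene Txnrd1 (1.23-fold) and Glrx2 (1.17-fold).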

How the data were processed

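Polyadenylated RNA of 12 retina libraries was read in pairs of 101 bp, all libraries on 1 lane and the F1 libraries on a second. The authors trimmed reads with Trim Galore (0.2.6), aligned them with Bowtie (0.12.9) to strain-specific or hybrid transcriptomes on NCBI37 (mm9 in the labels) and estimated levels with MMSEQ. The deposited tables hold 4 kinds of value per library or F1 allele. Count equivalents are a signal that the authors normalized across libraries, expression is a natural log estimated by the authors, its posterior SD is a score deposited by the authors, and unique hits are a count deposited without normalization. The exponential of the log was used as FPKM. The authors' table of model probabilities and its ratio was used only for the column that says whether a gene is polymorphic, and 36 columns of values per sample were not used.

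Groups came from the labels. F0 strains were compared with limma-trend on log2(count equivalents + 1) over autosomal genes with at least 10 in at least 3 libraries. The pseudocount understates changes of low genes. For alleles, the F0 libraries and the F1 allele columns entered 1 model in which columns of the same F1 library formed a block (duplicateCorrelation, consensus 0.1354). It covered autosomal polymorphic genes whose allele-specific unique hits averaged at least 10 per F1 library. Benjamini-Hochberg adjustment ran over all genes tested, and calls were made under 0.05. Shares carry exact binomial 95% intervals. Fits were made in R 4.3.3 with limma 3.58.1 and statmod 1.5.0, alternatives also with DESeq2 1.42.0 and edgeR 4.0.16, and tables and figures in Python. The fits were tested on simulated data.

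The members and all gene lists were chosen with earlier results of these data known. All members are named, other family rows are named where they hold at least 1% of the family's unique hits or pass a test, and pathway genes are named as the 3 largest called changes in each direction. Alternatives were other pseudocounts, no filter, TMM factors, log expression, edgeR, DESeq2, at least 50 allele-specific hits, a replicate block, and leaving out each library. Depth was 8158534 to 12363291 unique hits a library, and counting intervals do not cover biological spread. The sources say that libraries are separate pools of retinas. 1 further rod marker is not reported here.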

Additional observations from a re-analysis of the deposited data

Results flagged for a closer look

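For 2 members the difference between the strains was not the difference between the alleles by the test of that contrast. For Gstm1 the F0 strain difference minus the F1 allelic difference was -0.79 on the log2 scale (limma, adjusted p = 0.0048), and for Gstt1 it was -0.65 (limma, adjusted p = 0.0439). The Gstm1 ratio of alleles rests on 78.3 allele-specific hits a library and that of Gstt1 on 266. No F1 library stood apart from the other 5 in the allelic log2 ratio of any of the 10 members by Dixon's test at the 95% level.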

How the results depend on the processing

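In limma and the other tools, the called F0 and allelic differences of the members kept their direction under every alternative run. Values that were not called did not always do so. For Gstk1 the F0 difference turned to -0.042 without replicate 1 of F0 Cast/EiJ (range over left-out libraries -0.042 to 0.437) and the allelic difference to -0.007 without replicate 2 of F1 CastxB6 (-0.007 to 0.394). Its trans difference turned to 0.066 in edgeR on unique hits, and it ran from -0.235 to 0.251 with a library left out, above 0 without replicate 3 of F0 C57BL/6J, replicate 2 of F0 Cast/EiJ, replicate 1 of F1 B6xCast or replicate 2 of F1 CastxB6. Without replicate 3 of F0 C57BL/6J the trans differences of Gstm5 (-0.302 to 0.058) and Gsta4 (-0.189 to 0.007) turned as well. The causes were not tested.

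Without the filter on low values, where more genes were tested, 3161 genes were called between the F0 strains and 1 member, Gstm1, for trans. Leaving out a library gave 3 to 4 members called between strains, 4 to 5 between alleles, 1 to 2 for trans and 1 to 4 for hybrid against parents, and 9 to 19 genes between the crosses. TMM factors gave 3263 genes for hybrid against parents. With the replicate number as a block 5 members were called between strains, Gstm5 (adjusted p = 0.00096 in limma) and Gsto1 (0.038) being added, 5 between alleles, 2 for trans and 2 for hybrid against parents. Deviations from the group means correlated at -0.114 to 0.299 over the 18 pairs of same-numbered libraries. The 6 pairs above 0.1 were those of replicate 1 (0.277 to 0.299) and replicate 3 (0.116 to 0.149) among F0 C57BL/6J, F0 Cast/EiJ and F1 B6xCast. No pair of replicate 2 and none with F1 CastxB6 was above 0.1, and not every library correlated best with its own number, so the numbers were not taken to pair the samples. Gstm2 left the F0 fit where unique hits were tested or a Cast/EiJ library was left out. Using count equivalents for unique hits moved the share of the family by over 1 SD in 33 of 40 gene and group pairs. In the hybrids Gstm2, Gstm6 and Gstt3 had too few allele-specific hits for the allelic test. Their allele-specific hits per count equivalent were 0.616, 0.0 and 0.145, against 0.461 for the median gene.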
